A study of Mus musculus with 47 samples.

Results

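The Cyp4a gene cluster of mouse chromosome 4 was described from 12 deposited peak lists of 3 histone marks in liver. Its members are Cyp4a12a, Cyp4a12b, Cyp4a14, Cyp4a10, Cyp4a31 and Cyp4a32, chosen by name and placed by their gene spans in mm9, and they are 6 of the 22367 protein-coding genes of the annotation. The livers came from 7 week old mice of 4 groups. Control male and control female mice carried floxed alleles of Ezh2 (Ezh2 f/f), and E1/E2-KO mice of either sex carried the same floxed alleles together with Ezh1-/- and an Alb-Cre transgene. The albumin promoter drives Cre in hepatocytes, so that endothelial, Kupffer and stellate cells of E1/E2-KO liver lacked Ezh1 but kept Ezh2. In all, 47 ChIP samples were listed, with 4 livers behind each mark and group but, by the sample records, 3 behind the H3K4me1 list of E1/E2-KO females, where the study's methods give 4. The reads of a group were pooled before peaks were called, and 1 list per mark and group was deposited. There was therefore no error between livers for any value given here, and no difference between groups was tested.

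The CYP4A enzymes are microsomal cytochromes P450 that hydroxylate the terminal (omega) carbon of fatty acids, including arachidonic acid. Their genes are textbook targets of Ppara, the nuclear receptor that fatty acids and fibrate drugs activate. In mouse liver the Cyp4a12 genes are known to be expressed more in males, whereas Cyp4a10 and Cyp4a14 are strongly induced by Ppara ligands and tend to be higher in females. H3K27me3 is the repressive mark placed by Ezh1 and Ezh2, H3K27ac marks active promoters and enhancers, and H3K4me1 marks enhancers.

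The 6 genes were spread over chr4:114971651-115294207 (mm9, gene spans of the GENCODE release M1). From the first to the last, they were Cyp4a12a (ENSMUSG00000066071.5, chr4:114971651-115005420, plus strand), Cyp4a12b (ENSMUSG00000078597.2, chr4:115084229-115111639, plus strand) and Cyp4a14 (ENSMUSG00000028715.2, chr4:115158805-115168747, minus strand). They were followed by Cyp4a10 (ENSMUSG00000066072.6, chr4:115190869-115206254, plus strand), Cyp4a31 (ENSMUSG00000028712.5, chr4:115236254-115251618, plus strand) and Cyp4a32 (ENSMUSG00000063929.6, chr4:115273574-115294207, plus strand). Only Cyp4a14 is read in the opposite direction to the other members.

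How much of this cluster can be read from 50 nt reads differed between the genes. Of the 50-nt sequences of the Cyp4a12a span, 52.4% occurred once in the genome when both strands were counted, and of those of Cyp4a12b 55.4%. The value was 64.1% for Cyp4a32, 84.3% for Cyp4a10, 86.7% for Cyp4a31 and 99.7% for Cyp4a14. A repeated 50-nt sequence cannot by itself be assigned to 1 place. A missing peak at Cyp4a12a or Cyp4a12b is therefore weaker information than a missing peak at Cyp4a14. The reads were paired, and the share of pairs that could be placed was not counted. The Cyp4a12 pair was the closest, as 20.8% of the 50-nt sequences of Cyp4a12a were found in Cyp4a12b and 25.3% of those of Cyp4a12b in Cyp4a12a. Among Cyp4a10, Cyp4a31 and Cyp4a32 the shared part was 4.21% to 7.5% of a span, and Cyp4a14 shared no 50-nt sequence with another member.

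The start sites showed the same split. Within 1 kb on each side of the start site, 40.2% of the 50-nt sequences were unique at Cyp4a12a and 39.6% at Cyp4a12b, against 83.5% at Cyp4a32, 89.3% at Cyp4a10, 92.4% at Cyp4a31 and 100% at Cyp4a14. Of the sequences around the Cyp4a12a start site, 56.7% recurred at or within 10 kb of Cyp4a12b, and of those around the Cyp4a12b start site 60.4% recurred at or within 10 kb of Cyp4a12a. Sonicated fragments mostly measured 100 bp or more, and at 100 nt the unique part was 72.4% of the Cyp4a12a span and 72.6% of the Cyp4a12b span. Around their start sites it was 54.2% and 53% at 100 nt.

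**Figure D1:**
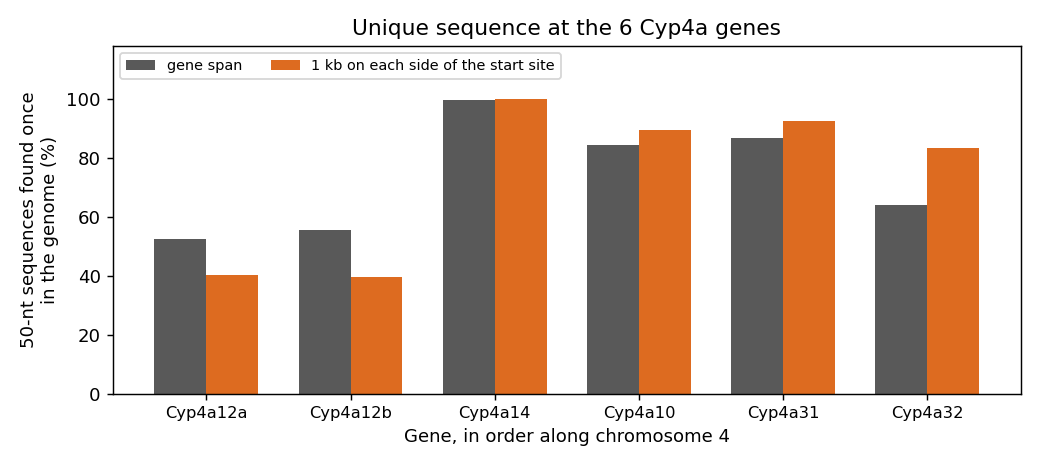
Bars give the percent of 50-nt sequences that occur once in the mm9 genome, over the gene span and within 1 kb on each side of the start site, for the 6 genes in their order along the chromosome. The start sites of Cyp4a12a (40.2%) and Cyp4a12b (39.6%) are the least unique, and that of Cyp4a14 is unique throughout (100%).

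H3K27me3 regions were first searched for in the gene spans, to ask whether Ezh1 and Ezh2 mark the cluster. No base of any of the 6 spans, 122509 bp joined, lay inside an H3K27me3 region in any of the 4 groups. This held for 42.5% of all protein-coding genes over the 4 lists together, and is thus a common state. Since coverage was 0% in control liver, no lower coverage in E1/E2-KO liver was possible at the cluster. Among all genes, 6.07% in males and 7.59% in females had coverage lower by 25 percentage points or more in E1/E2-KO than in control liver. Coverage was higher by as much at 9.86% and 6.29%. It counts bases inside called regions and is no measure of the amount of the mark. The H3K27me3 lists covered 766 and 750 Mb in control and E1/E2-KO males, and 728 and 707 Mb in females. Comparing replicates, the study reported lower H3K27me3 at most sites that changed in E1/E2-KO liver. The shares of genes given here are another measure, and in males more genes were higher than lower.

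The whole cluster lay in a long stretch without H3K27me3 regions. This stretch measured 558 kb in control males, 585 kb in E1/E2-KO males, 588 kb in control females and 586 kb in E1/E2-KO females. Of the gaps between regions on the autosomes, 2.79% to 3.78% of a list were as long or longer. On the Cyp4a12a side it ended at a region of 93.6 to 109 kb, whose near edge was 157251 to 160451 bp before Cyp4a12a and which covered 100% of Cyp4x1, another member of the P450 family named after its values were seen, in all 4 lists. On the Cyp4a32 side the 4 lists differed. In control male liver a region of 14.4 kb (chr4:115372801-115387200) began 78.6 kb after Cyp4a32 and covered the pseudogene Gm12849, which was at 0% in the other 3 lists, where the nearest region began 104 or 105 kb away.

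H3K27ac peaks were then counted within 10 kb of the spans. Control male liver had 3 different peaks near the 6 genes, E1/E2-KO male liver 10, control female liver 11 and E1/E2-KO female liver 12. The peaks summed to 1437, 4745, 3699 and 5066 bp in that order. Control male liver therefore stood below the other groups, which were close to each other. The control male list was also the shortest of the mark, with 29359 peaks against 49702 to 55930 in the other lists. When every list was reduced to the same number of its widest peaks, the counts near the cluster became 3, 5, 3 and 4 in the same order of groups. Control males and control females then had the same count.

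Cyp4a14, an omega-hydroxylase gene with strong induction by Ppara ligands, is described first. It had 1 H3K27ac peak within 10 kb in control males, 4 in E1/E2-KO males, 5 in control females and 3 in E1/E2-KO females. With peaks within 1 kb merged the counts were 1, 2, 1 and 3 in that order, so the higher control female count rests on neighbouring short peaks. A peak over its start site was found in each group but control males. It was called in E1/E2-KO males (chr4:115168348-115169382, 1035 bp), in control females (chr4:115168206-115168824, 619 bp) and in E1/E2-KO females (chr4:115167427-115168770, 1344 bp). In control male liver the nearest H3K27ac peak was 2.05 kb upstream of the start site, although an H3K4me1 peak of 480 bp covered the start site there. All 50-nt sequences at this site are unique, and so it can be read without the limits of the Cyp4a12 genes.

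Cyp4a10, the neighbour of Cyp4a14 with a similar response to Ppara ligands, had 1 H3K27ac peak in control males, 3 in E1/E2-KO males, 3 in control females and 2 in E1/E2-KO females. A site 4.34 kb upstream of its start site was called in all 4 lists. A site in its intron, 0.571 kb past the start site (chr4:115191440-115191846), was called in each list but control male. Another, 0.359 kb upstream of the start site, was called in E1/E2-KO males and control female liver. None of the 3 was particular to E1/E2-KO liver.

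Cyp4a31 and Cyp4a32, the last genes of the cluster, followed a different order of groups. Cyp4a31 had 0 H3K27ac peaks in control males, 1 in E1/E2-KO males, 1 in control females and 3 in E1/E2-KO females. Cyp4a32 had 1, 2, 2 and 4 in the same order. With peaks within 1 kb merged the counts were 0, 1, 1 and 2 for Cyp4a31 and 1, 1, 1 and 2 for Cyp4a32. The Cyp4a32 difference between control and E1/E2-KO males, and that between controls, thus rests on neighbouring peaks. The E1/E2-KO female list was the only one with a peak over the start site of Cyp4a31 (chr4:115235993-115236333, 341 bp), in the Cyp4a31 intron 0.697 kb past it, and in the intron of Cyp4a32 (chr4:115274197-115274488, 292 bp). These 3 sites are unique at 100% of their 50-nt sequences. Sites called in E1/E2-KO females alone made up 9.88% of all 73144 H3K27ac sites, and 5 of the 15 sites near the members were of that kind. The control male list lacked 12 of the 15 sites, and 63.5% of all sites.

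Cyp4a12a and Cyp4a12b had no H3K27ac peak within 10 kb in any of the 4 lists, as did 28.2% of all genes. The H3K27ac gap over both genes measured 213 kb in control males, 198 kb in E1/E2-KO males, 406 kb in control females and 392 kb in E1/E2-KO females. For Cyp4a12b the nearest H3K27ac peak in any list was 69.4 to 86.6 kb from its start site. In the 10 kb before the spans 81.3% (Cyp4a12a) and 80.3% (Cyp4a12b) of the 50-nt sequences were unique, and in the 10 kb after them 28.3% and 69.9%. The part of repeated sequence in the missing peaks was not tested.

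Counted by gene, 4 of 6 members had more H3K27ac peaks in E1/E2-KO males than in control males and 0 had fewer. Among all genes 44.3% had more and 4.72% had fewer, and the median difference was 0 for all genes and 1 for the members. In females 2 of 6 had more in E1/E2-KO than in control liver, which were Cyp4a31 and Cyp4a32, and 2 had fewer, which were Cyp4a14 and Cyp4a10. Among all genes 22.9% had more and 19.5% fewer in that comparison. Between controls, 4 of 6 had fewer peaks in males than in females and 0 had more, against 39.4% and 5.94% of all genes. Between the E1/E2-KO groups 2 of 6 had more in males and 2 fewer, against 24.2% and 17.8% of all genes. The members with a peak numbered 3, 4, 4 and 4 of 6 in control males, E1/E2-KO male, control female and E1/E2-KO female liver, while 60.4%, 69.0%, 67.0% and 68.4% of all genes had one. Since the 6 genes share a neighbourhood, and Cyp4a12a and Cyp4a12b had no peak to compare, these counts describe the cluster and no more. With peaks within 1 kb merged, 3 of 6 had more in E1/E2-KO males than in control males and 0 fewer. Between controls 2 of 6 then had fewer in males and 0 more, and in females 3 had more in E1/E2-KO than in control liver and 1 fewer. With equal numbers of the widest peaks, 2 of 6 members (Cyp4a14 and Cyp4a31) had more in E1/E2-KO males than in control males, between controls 1 had fewer in males (Cyp4a14) and 1 more (Cyp4a32), and in females 1 had more in E1/E2-KO than in control liver (Cyp4a32) and 1 fewer (Cyp4a14). The shares of all genes given above are from the full lists and were not counted with merged peaks or at equal numbers. The counts under these 2 settings therefore have no share to be set against.

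**Figure D2:**
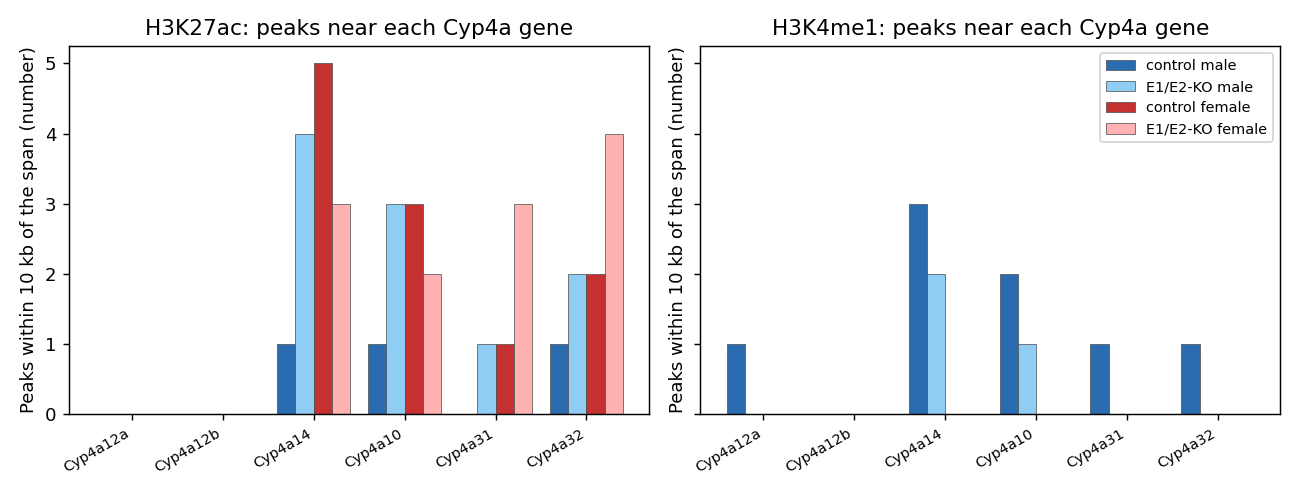
Bars give the number of called H3K27ac (left) and H3K4me1 (right) peaks within 10 kb of each Cyp4a gene span, 1 bar per group, with 1 pooled list behind each bar and hence no error bar. H3K27ac is lowest in control males at Cyp4a14 (1 against 3 to 5), and no H3K4me1 peak appears in either female list.

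H3K4me1 gave another order of groups. Control male liver had 8 different H3K4me1 peaks within 10 kb of the 6 genes, E1/E2-KO male liver 3, control female liver 0 and E1/E2-KO female liver 0. The male lists of this mark were longer, with 69797 and 67913 peaks against 54798 and 51417 in the control and E1/E2-KO lists of females. When the lists were reduced to the same number of widest peaks, the counts were 5 in control males, 2 in E1/E2-KO males and 0 in both female lists. An absence from both female lists was found within 10 kb of 25.2% of all genes. A peak in control males together with none in either female list, the state of 5 of 6 members, was found at 2.06% of all genes. Cyp4a12b was the member left out, and it had no peak of either active mark within 10 kb in any of the 8 lists, as had 20.8% of all genes. The state of the other members is not particular to the cluster. It was also that of Cyp21a1, Cyp3a25 and Cyp2c66, P450 genes outside it that are named below for similar values. How many of all P450 genes had it was not counted.

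By gene, Cyp4a14 had 3 H3K4me1 peaks in control males and 2 in E1/E2-KO males, and Cyp4a10 had 2 and 1. Cyp4a12a, Cyp4a31 and Cyp4a32 had 1 each in control males and 0 in E1/E2-KO males, and Cyp4a12b had 0 in both. Thus 5 of 6 members had fewer H3K4me1 peaks in E1/E2-KO males than in control males, where 29.1% of all genes had fewer. With equal numbers of the widest peaks, or the widest 50% of each list, 2 of 6 members (Cyp4a14 and Cyp4a10) remained in this count, and the same 2 in the count of more peaks in control males than in control females. The shares of all genes were not counted on these reduced lists, so the 2 of 6 cannot be set against the shares from full lists. The H3K4me1 peak of Cyp4a12a was 190 bp wide and lay in an intron, 23.7 kb past the start site (chr4:114995350-114995539). It was the only peak of either active mark inside the span of a Cyp4a12 gene in the 8 lists. Between controls, 5 of 6 members had more peaks in males than in females, as did 39.9% of all genes, and 0 had fewer (13.1% of all genes). Between the E1/E2-KO groups 2 of 6 had more in males and 0 fewer, against 43.4% and 11.8%. In females no member had a peak in either genotype, where 20.7% of all genes had more and 30.9% fewer in E1/E2-KO liver.

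The 9 H3K4me1 sites within 10 kb of a member were all called in males alone, as were 32.4% of all H3K4me1 sites. Of the 9, 6 were called in control males alone (13.6% of all sites), 2 in both male groups (6.42%) and 1 in E1/E2-KO males alone (12.4%). The pair found in both male groups lay 1.75 kb upstream of the Cyp4a14 start site and in the Cyp4a10 intron 0.564 kb past its start site. At the Cyp4a10 intron H3K27ac was called in E1/E2-KO males and not in control males, although H3K4me1 was called in both.

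In E1/E2-KO female liver the gap without H3K4me1 was 512 kb long and held all 6 genes, and 1.24% of the autosomal gaps of that list were as long or longer. In control female liver a gap of 330 kb ended at a peak of 346 bp, 40.6 kb past the start site of Cyp4a12b at the edge of the pseudogene Cyp4a30b-ps. The same place was called in E1/E2-KO males. The female H3K4me1 lists did hold peaks around the cluster, since a site 58 kb past the start site of Cyp4a32 was called in all 4 lists, and 71.4% (control) and 71.0% (E1/E2-KO) of all genes had a peak within 10 kb in females, against 74.3% and 75.4% in males.

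The overlap of the 2 active marks near the members was counted in each group. In control male liver 3 of 3 H3K27ac peaks near the members overlapped an H3K4me1 peak of the same group, and in E1/E2-KO males 3 of 10 did. In females 0 of 11 peaks of controls and 0 of 12 of E1/E2-KO mice did. With 0 H3K4me1 peaks near the members in both female lists, no other value was possible there. The 3 H3K4me1 peaks of E1/E2-KO males also limited the count in that group. The counts near the members are therefore not read against the shares of the whole lists. Over the whole lists the overlapped share was 63.7%, 55.6%, 49.3% and 40.4% for control male, E1/E2-KO male, control female and E1/E2-KO female. In both female groups an H3K27ac peak without an H3K4me1 peak within 10 kb was seen at 4 of 6 members, namely Cyp4a14, Cyp4a10, Cyp4a31 and Cyp4a32, and at 1.44% of all genes. Cyp21a1 and Cyp3a25, P450 genes outside the cluster, had this state as well. The peak lists carry no height, and H3K4me1 below the calling threshold was not analysed here.

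**Figure D3:**
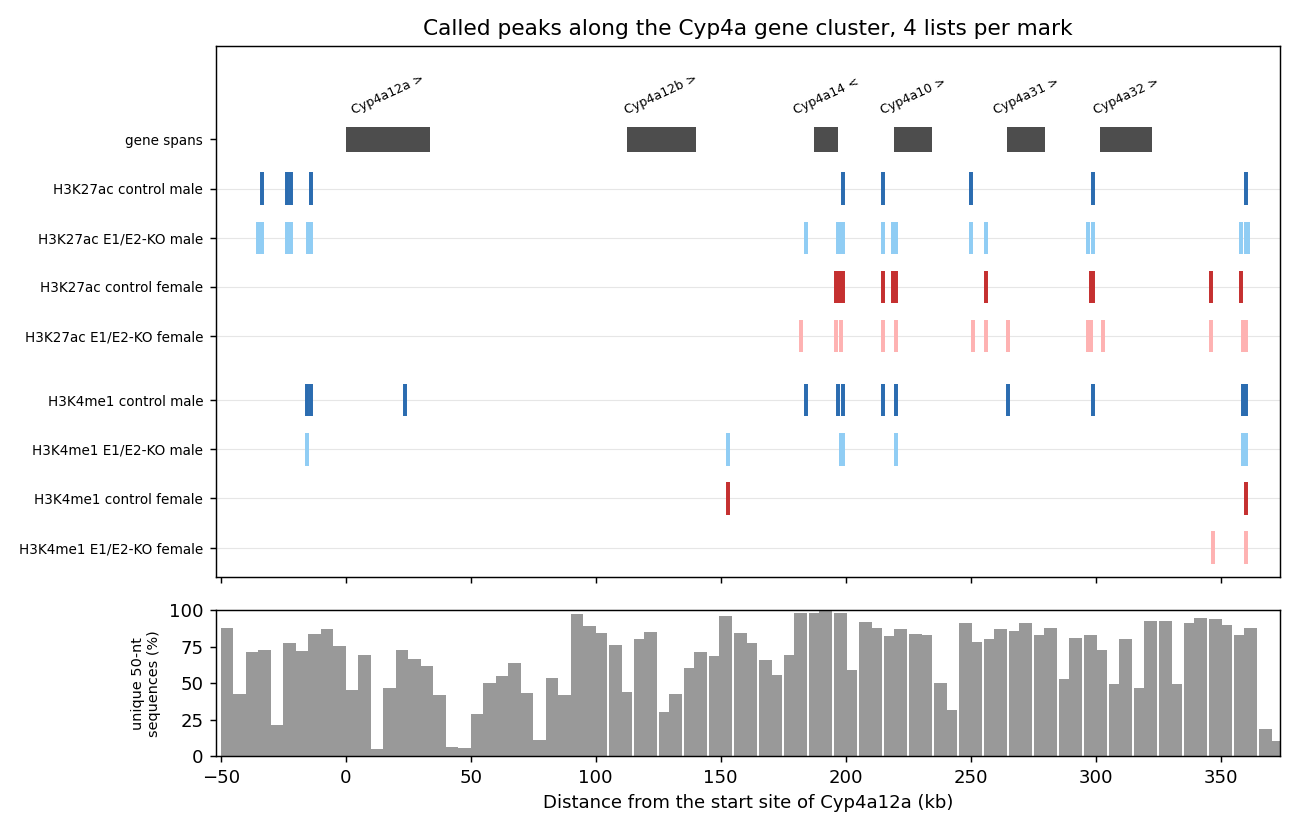
Each vertical line is the middle of 1 called peak, by mark and group, along the distance in kb from the start site of Cyp4a12a, with peak widths not drawn to scale. Bars above are gene spans with their direction, and grey bars below are the percent of unique 50-nt sequences in 5 kb windows. H3K27ac lines before Cyp4a12a are found in the male lists and not in the female lists, and H3K4me1 lines at the genes are found in the male lists alone.

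A group of H3K27ac sites lay before Cyp4a12a, outside the 10 kb limit, and was singled out after its values were seen. There were 6 sites from 35 to 13.4 kb upstream of the start site, all between genes and all with 100% unique 50-nt sequence. Both male lists called 4 of them, the E1/E2-KO male list alone called 2, and neither female list called any. Sites called in both male lists and neither female list made up 0.824% of all H3K27ac sites, and those in at least 1 male and neither female list 17.9%. The widest site (chr4:114957346-114958236) had a peak of 886 bp in control males and 513 bp in E1/E2-KO males. It also had an H3K4me1 peak of 910 bp in control males and none in E1/E2-KO males. A site 15.1 kb upstream had an H3K4me1 peak in both male groups, 210 bp in control and 375 bp in E1/E2-KO, and an H3K27ac peak of 193 bp in E1/E2-KO males. The female lists had their nearest H3K27ac peak 182 to 196 kb from the Cyp4a12a start site. The nearest H3K27ac site to Cyp4a12a, the gene known for male bias, was thus called in males of both genotypes, and the next one in E1/E2-KO males alone.

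The central 300 bases of 2 of these male sites are printed (mm9, plus strand, 5′ to 3′) since H3K27ac was called there in both male lists and in neither female list, at unique sequence. Capitals mark bases inside the peaks of both male lists.
site 33.2 kb before Cyp4a12a, chr4:114938095-114938394: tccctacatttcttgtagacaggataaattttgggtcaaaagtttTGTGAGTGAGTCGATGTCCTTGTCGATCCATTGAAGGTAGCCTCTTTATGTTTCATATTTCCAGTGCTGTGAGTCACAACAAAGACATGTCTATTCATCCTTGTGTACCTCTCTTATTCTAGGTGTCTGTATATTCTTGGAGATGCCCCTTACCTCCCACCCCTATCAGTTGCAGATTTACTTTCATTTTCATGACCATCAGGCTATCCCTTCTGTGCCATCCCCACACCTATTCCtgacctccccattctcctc
site 13.4 kb before Cyp4a12a, chr4:114957641-114957940: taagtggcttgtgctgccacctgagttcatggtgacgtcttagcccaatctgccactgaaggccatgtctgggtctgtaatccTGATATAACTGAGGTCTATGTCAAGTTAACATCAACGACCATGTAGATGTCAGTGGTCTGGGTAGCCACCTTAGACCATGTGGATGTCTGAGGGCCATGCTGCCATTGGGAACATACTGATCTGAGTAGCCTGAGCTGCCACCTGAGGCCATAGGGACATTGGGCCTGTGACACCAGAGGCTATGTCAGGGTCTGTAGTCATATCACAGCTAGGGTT

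Among the 15 H3K27ac sites within 10 kb of a member, 2 were called in all 4 lists, a pattern of 30.1% of all sites. One was the site upstream of Cyp4a10 and the other lay 3.08 kb upstream of Cyp4a32 (chr4:115269787-115270498). The first was 87.1% unique and the second 96.9%. A further 4 were called in each list but control male, a pattern of 13.4% of all sites. The 2 sites shared by all groups are printed in the same way, with capitals for bases inside a peak of every list.
site 4.34 kb before Cyp4a10, chr4:115186044-115186343: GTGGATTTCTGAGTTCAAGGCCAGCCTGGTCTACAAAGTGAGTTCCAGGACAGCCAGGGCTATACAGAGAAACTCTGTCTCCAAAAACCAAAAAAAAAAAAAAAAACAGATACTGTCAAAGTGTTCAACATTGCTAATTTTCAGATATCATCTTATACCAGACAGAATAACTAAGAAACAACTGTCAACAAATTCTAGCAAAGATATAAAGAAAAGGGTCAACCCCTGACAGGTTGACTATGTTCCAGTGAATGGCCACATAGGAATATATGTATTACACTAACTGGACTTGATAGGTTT
site 3.08 kb before Cyp4a32, chr4:115269993-115270292: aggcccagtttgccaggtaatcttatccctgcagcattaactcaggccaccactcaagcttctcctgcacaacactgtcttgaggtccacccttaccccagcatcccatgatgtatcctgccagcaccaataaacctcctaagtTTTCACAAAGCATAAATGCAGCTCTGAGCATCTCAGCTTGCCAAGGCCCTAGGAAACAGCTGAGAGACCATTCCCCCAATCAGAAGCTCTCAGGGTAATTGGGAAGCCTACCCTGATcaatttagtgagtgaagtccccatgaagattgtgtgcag
In the Cyp4a10 window all 300 bases were inside peaks of the 4 lists, and in the Cyp4a32 window 117 bases were.

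The 25 H3K27ac sites from 50 kb before Cyp4a12a to 50 kb after Cyp4a32 were also searched for motifs, on both strands of their central 300 bases. The motifs were the DR1 element, the direct repeat bound by Ppara with Rxra, in a strict and a looser form, and TTCNNNGAA, the core known for Stat5, which relays growth hormone signals in liver. No window held any of them, while over all H3K27ac sites 0.0779% held the strict DR1 element, 0.774% the looser form and 8.71% TTCNNNGAA. A missing match says only that these letters are not in the windows.

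**Figure D4:**
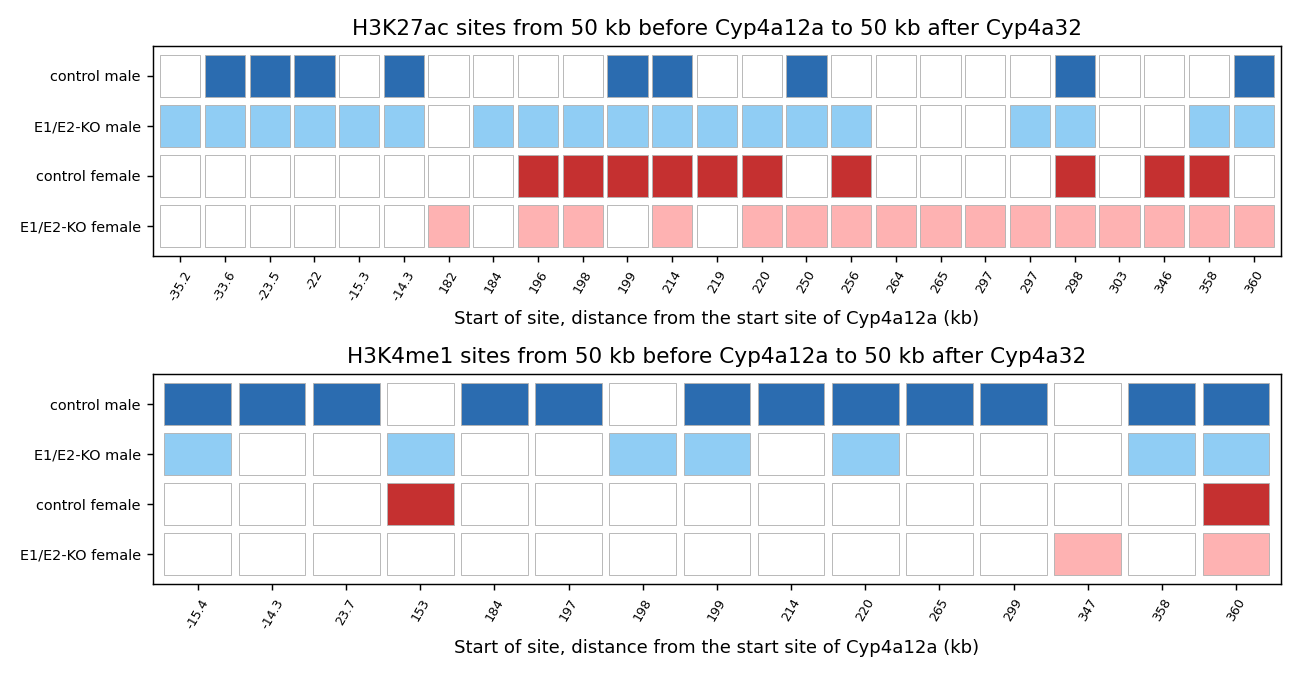
Filled boxes mark the lists in which each H3K27ac site (upper, 25 sites) and H3K4me1 site (lower, 15 sites) was called, with sites in order and labelled by the distance of their start from the start site of Cyp4a12a in kb. The 6 leftmost H3K27ac sites are filled in male rows alone, and H3K4me1 is filled in a female row at 3 sites.

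The other Cyp4 genes, 14 in the fixed list and all found, offered a comparison of H3K27me3 within the family. The coverage was higher by 25 points or more in E1/E2-KO liver at 3 of 14 in males and 2 of 14 in females, and lower by as much at 0 of 14 in either sex. Over all genes 9.86% in males and 6.29% in females were higher by as much, and 6.07% and 7.59% were lower, and nothing more is read from counts this small. The part of Cyp4f14, a leukotriene hydroxylase gene on chromosome 17, inside called regions went from 0% to 100% in both sexes. Cyp4f15 went from 0% to 55.4% and Cyp4f40 from 0% to 100% in males, and Cyp4f13 from 0% to 41.9% in females. Cyp4b1, which lies next to Cyp4a32, was at 0% in all 4 lists, as were the Cyp4a pseudogenes Cyp4a29-ps and Cyp4a30b-ps between or beside the members. The remaining annotated genes of the interval from 100 kb before to 100 kb after the cluster (Gm12834, Gm12836, Gm12837, Gm12838, Gm12833, AL627182.1, Gm12832, Gm12839 and Gm12848) were also at 0% in all 4 lists.

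Ppara and 26 genes of its pathway in liver were looked at for the same reason, and all 27 were found. In this list 21 of 27 had more H3K27ac peaks in E1/E2-KO males than in control males and 2 had fewer. Among all genes 44.3% had more and 4.72% fewer. The control male list was the shorter, with 29359 against 55930 peaks, and these genes were not counted at equal numbers. In control males 26 of the 27 had a peak, against 60.4% of all genes. All 6 hepatocyte and all 4 endothelial markers described below also had more in E1/E2-KO males, so the rise was not particular to this list. In females 13 of the 27 had more and 9 fewer, against 22.9% and 19.5% of all genes. The median number of peaks within 10 kb was 3 in control males and 4 in E1/E2-KO males, where all genes had medians of 1 and 2. Every one of the 27 had an H3K4me1 peak within 10 kb in all 4 lists, against 71.0% to 75.4% of all genes in a list. H3K27me3 coverage of the list was higher by 25 points or more in E1/E2-KO liver at 5 genes and lower at 3 in males, and higher at 3 and lower at 1 in females. The shares over all genes were 9.86% and 6.07% in males and 6.29% and 7.59% in females. Ppara itself went from 0% to 65.7% in males and to 26.3% in females, and Acaa1b, a peroxisomal thiolase gene, from 0% to 81.7% in both. Angptl4, a lipoprotein lipase inhibitor gene, and Creb3l3, a liver transcription factor gene, went from 0% to 100% in males. The acyl-CoA thioesterase genes differed in direction in males, Acot1 from 66.3% to 100% and Acot2 from 66.4% to 0%. Pdk4, a pyruvate dehydrogenase kinase gene, went from 100% to 0% in males. Aldh3a2, a fatty aldehyde dehydrogenase gene, went from 100% to 37.9% in males and from 89.6% to 23.3% in females. Slc27a1, a fatty acid transporter gene, went from 65.1% to 98.8% in females.

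For each member the P450 genes outside the cluster with the most similar values were sought over the 12 lists among 91 genes, by the mean absolute difference of coverage (as a fraction) and of log2(peaks + 1). For Cyp4a14 these were Cyp2c70 (0.226) and Cyp3a11 (0.228), and for Cyp4a10 Cyp21a1 (0.0833) and Cyp3a25 (0.132). For Cyp4a31 they were Cyp2a22 (0.167) and Cyp4b1 (0.25), and for Cyp4a32 Cyp3a25 (0.228) and Cyp2c67 (0.242). Cyp4a12a, with 1 peak over all lists, had the same values as Cyp2c66 (0) and nearly those of Cyp11b1 (0.0833). Cyp4a12b had no region or peak in any list and no neighbour was named. Such small counts give many near ties.

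The label of the tissue was checked against markers. All 6 hepatocyte markers had an H3K27ac peak within 10 kb in each list, and their H3K27me3 coverage in control liver was 0% throughout, whereas Apoa1 was at 100% and 50.3%, Tat at 100% and 65.8% and Hnf4a at 89.1% and 71% in E1/E2-KO males and females. The other 3 of 6, Alb, Apob and Ttr, were at 0% to 2.73%. Coverage was higher by 25 points or more at 9.86% of all genes in males and 6.29% in females. The endothelial markers went the other way in 3 of 4, where 6.07% of all genes in males and 7.59% in females were lower by 25 points or more, with Pecam1 from 100% to 0% in males and 87.6% to 0% in females, Stab2 from 87.3% and 64.2% to 0%, and Cdh5 from 100% to 26.3% and from 61.8% to 10.4%. Of the 3 Kupffer, 3 stellate and 3 bile duct cell markers, 0 were lower or higher by 25 points or more in males. In females Dcn, a stellate cell marker, went from 27.4% to 0%, and Epcam, a bile duct marker, from 70.6% to 100%. The others of these lists did not change by as much. Summed over the 6 hepatocyte markers the H3K27ac peaks numbered 18 in control males, 41 in E1/E2-KO males, 38 in control females and 31 in E1/E2-KO females. The 4 endothelial markers summed to 7, 27, 20 and 27, with Kdr and Cdh5 at 0 in control males. Control male liver was the lowest for both lists, as it was at the Cyp4a genes. For H3K4me1 the hepatocyte markers summed to 19, 13, 12 and 13 peaks and the endothelial markers to 20, 25, 16 and 11 in the same order. The hepatocyte sum was thus highest in control males, as was the H3K4me1 count at the Cyp4a genes (8, 3, 0 and 0). The stellate cell markers summed to 6, 6, 1 and 2 H3K4me1 peaks, also higher in males, the bile duct markers to 1, 4, 1 and 4, and the Kupffer cell markers to 4, 4, 3 and 3. For H3K27ac the 3 Kupffer cell markers summed to 4, 4, 3 and 2 with Adgre1 at 0 in every list, so that control males were not the lowest there. The 3 stellate cell markers summed to 0, 1, 1 and 2 with Dcn at 0 in every list, and the 3 bile duct markers to 0. In whole liver, fewer cells of a type and less of the mark per cell cannot be told apart, and the part of other cell types in the counts at the Cyp4a genes was not tested.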

How the data were processed

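Livers were profiled by ChIP-seq for H3K27me3, H3K27ac and H3K4me1. The authors pooled the 50 nt paired-end reads of a group, mapped them to mm9 with Bowtie2 2.3.2, and used SICER 1.1 for H3K27me3 and MACS2 2.1.1 for H3K27ac and H3K4me1, as the submitters' processing notes and the study's methods state. The deposited lists hold positions and names of peaks, without a score or count, so depth per sample is unknown and no interval on a count is given. The lists held 15603 to 19796 H3K27me3 regions, 29359 to 55930 H3K27ac peaks and 51417 to 69797 H3K4me1 peaks. SICER ends were extended by 1 base, and positions are printed counted from 1.

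Gene spans came from GENCODE release M1 on NCBIM37, which is mm9. A peak was assigned to a gene when at least 1 bp lay within 10 kb of the span, and a site is the union of overlapping peaks of the 4 lists of a mark. A 50-nt sequence was called unique when it occurred once in NCBIM37 on both strands. Named genes were all members, every annotated gene within 100 kb of the cluster, those of the Cyp4 and Ppara lists whose H3K27me3 coverage changed by 25 points or more, and 2 similar Cyp genes per member, and marker genes are named as examples. The members and lists were chosen with earlier results of these data known. Alternatives were a distance of 50 kb or the span alone, an overlap of 50% of the peak, merging within 1 kb, the widest 50% of peaks, equal numbers of the widest peaks, spans extended by 3 kb, coverage from 25%, a change of 50 points and 100-nt sequences. The lists give no strength of a peak, so they were reduced by width, which is no measure of strength. Python 3.11.15, NumPy 2.4.6, Numba 0.67.0 and matplotlib 3.10.9 were used, and overlap and uniqueness counting were tested on simulated data.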

Additional observations from a re-analysis of the deposited data

Results flagged for a closer look

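The direction of the E1/E2-KO comparison for H3K27ac peaks within 10 kb differed between the sexes at 2 of the 6 genes. At Cyp4a14 the count was higher by 3 in E1/E2-KO male than in control male liver (4 against 1) and changed by -2 in females (3 against 5). At Cyp4a10 it was higher by 2 in males (3 against 1) and changed by -1 in females (2 against 3). With equal numbers of the widest peaks, and with the widest 50% of each list, the Cyp4a10 difference was 0 in both sexes, and in females it was also 0 for peaks that overlap the span and within 50 kb. The Cyp4a14 difference was 1 in males and 0 in females with the widest 50% of each list, so its opposite direction was lost there. With equal numbers of the widest peaks it was 1 in males and -1 in females. The difference between the sexes was not tested, since each count comes from 1 pooled list. The share of all genes with opposite directions in the sexes was not counted, so the 2 of 6 is not read as a trait of the cluster. With peaks within 1 kb merged, the 5 control female peaks at Cyp4a14 became 1 and the 3 of E1/E2-KO females stayed 3, which turned the female difference to 2.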

How the results depend on the processing

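The alternatives for H3K27me3 could not move a coverage of 0%, since the nearest region lay 78.6 kb from a member, and they say nothing of its stability. In males the E1/E2-KO minus control difference kept its sign in 6 of 6 alternatives for H3K27ac (2 to 11 peaks) and for H3K4me1 (-6 to -3 peaks), and control male minus control female H3K4me1 did so in 6 of 6 (3 to 10 peaks). The female E1/E2-KO minus control difference for H3K27ac also kept its sign in 6 of 6 (1 to 3 peaks). An overlap of 50% of the peak changed none of these counts, so it was no check. Only equal numbers of the widest peaks took away the unequal length of the lists. With it the E1/E2-KO minus control difference in males was 2 for H3K27ac and -3 for H3K4me1. The differences between the sexes for H3K27ac did not keep their sign throughout. Control male minus female was 0 in 2 of 6 alternatives, and E1/E2-KO male minus female, -2 as reported, was 4 within 50 kb and 1 with lists reduced to equal numbers.

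In the order control male, E1/E2-KO male, control female and E1/E2-KO female, peaks that overlap the spans numbered 0, 2, 3 and 5 for H3K27ac, and 4 and 1 in the male lists for H3K4me1. Within 50 kb H3K27ac numbered 9 in control and 20 in E1/E2-KO males, and H3K4me1 to 7 in E1/E2-KO males and 2 in each female list. Merging peaks within 1 kb left 6 H3K27ac peaks in control females. The widest 50% of peaks left 4, 2 and 4 H3K27ac peaks in E1/E2-KO male, control female and E1/E2-KO female liver, and 3 and 0 H3K4me1 peaks in control and E1/E2-KO males. Equal numbers of the widest peaks left 5, 3 and 4 H3K27ac peaks in those same 3 groups and 5 H3K4me1 peaks in control males.

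For single genes 4 of 288 comparisons reversed, 111 moved without reversing and 173 stayed the same. Differences reported as 0, such as those of H3K4me1 between the female lists, could not reverse. The small number of reversals is therefore no measure of stability. With peaks within 1 kb merged, Cyp4a14 H3K27ac became 2 for E1/E2-KO minus control in females and -1 for E1/E2-KO male minus female, since its 5 control female peaks joined to 1 and its 4 E1/E2-KO male peaks to 2, against 3 in E1/E2-KO females. With lists of equal length, male minus female became 1 for Cyp4a32 in controls and 1 for Cyp4a31 in E1/E2-KO. The cause of the latter was not tested. The unique part of the 6 spans joined was 67.2% at 50 nt and 82.6% at 100 nt. No paired analysis was possible because the reads of numbered livers were pooled into 1 list per group, and for the same reason no liver could be left out. Peak width is no measure of strength, and depth per list is unknown.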
